A study of Oikopleura dioica with 12 samples.

Results

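Very long protein-coding genes outside operons were described in Oikopleura dioica, a planktonic tunicate chordate with a compact genome. A gene belonged to the group if its model had 2 or more coding exons, a summed coding sequence (CDS) of at least 3000 bp, no neighbour on the same scaffold and strand within 60 bp, and at least 100 reads over all libraries. Of 14574 genes with at least 100 reads, 610 met this rule, and 55 further models met its annotation part but had fewer reads. None of the measured changes or ratios entered the rule.

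Ribosome-protected fragments (RPFs, the short stretches of mRNA shielded by a ribosome from nuclease) and total RNA were sequenced from whole day 6 females. The animals had been held for 1.5 h with 1 μM Torin 1, an inhibitor of the kinase mTOR, or with DMSO as vehicle. There were 3 libraries each of RPFs from Torin 1, RPFs from DMSO, RNA from Torin 1 and RNA from DMSO, called biological replicates by the submitters. Each library was a pool of animals freed of their houses, the RNA came from a subset of the same collection, and no cycloheximide was used.

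In this animal many genes lie in operons, which are transcribed as one RNA and resolved into separate mRNAs by trans-splicing of a spliced leader, a short RNA joined to the 5′ end of the message. Genes outside operons have their own transcription unit, and among the longest are those for motor proteins of cilia and flagella, muscle myosins, extracellular matrix proteins and the structural proteins of the house, the secreted filter in which the animal lives. mTOR promotes the initiation of translation, most of all of mRNAs for the translation machinery. No member was on the study's list of such mRNAs or of S6 kinases. A member outside the naming rule, GSOIDG00015272001, is described as 60s ribosomal protein l35, though its model has a CDS of 3312 bp in 12 coding exons. Whether the description fits the whole model was not tested. Its RNA change was 2.08 and its efficiency change −2.48 on the log2 scale, neither past the adjusted threshold in edgeR. It had 452 reads in all, with RPF counts of 2, 2 and 0 in Torin 1 and 82, 6 and 1 in DMSO.

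Before any result, several libraries stood apart. RNA replicate 2 of Torin 1 and RNA replicate 2 of DMSO differed by little more than sampling noise over the members, with a chi-square per degree of freedom of 1.07, against 69.9 or more for every other pair of RNA libraries. RPF DMSO replicate 1 held 22889270 counts, against 91549 to 874562 in the other 5 RPF libraries and 7520819 to 27462750 in the RNA libraries. Over the members, its log2 CPM (counts per 1000000) correlated at 0.958 with RNA Torin 1 replicate 3, and at 0.705 to 0.860 with the other 10 libraries. Whether these libraries carry the right labels cannot be told from the files. The labels were kept, so every RNA change and every ratio below takes them as given, and main values are repeated without 1 or more of these libraries.

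The sampled tissue was described with genes the study's table lists as parts of cilia and sperm tails or of muscle. That table was held only for the genes with the strongest fall in efficiency, RPFs relative to RNA, in these same libraries. High RNA in Torin 1 or high RPFs in DMSO can thus reflect how these genes were chosen, and the shares are no independent check. The 41 cilium and sperm tail genes together took 0.808%, 2.48% and 0.798% of counts in RPF Torin 1 replicates 1 to 3 and 3.08%, 0.229% and 0.624% in RPF DMSO. In RNA they took 0.293%, 0.0530% and 2.37% in Torin 1 and 0.0575%, 0.0551% and 0.0175% in DMSO. The 13 muscle genes took 0.459% of counts in RNA Torin 1 replicate 1 and 0.00623% to 0.108% in the other 11 libraries. All genes of both lists had reads in every RNA library, and in RPF Torin 1 replicate 3, the shallowest library, 4 of 41 and 8 of 13 had none. In these pools, fewer cells of a type and less RNA per cell cannot be told apart.

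The members had a median CDS of 4148 bp and a median of 9 coding exons, with ranges of 3000 to 26658 bp and 2 to 47 exons. Introns took a median of 15.2% of the span, against 14.7% for long genes with a close neighbour and 21.2% for all genes with a model. A minimum CDS length by itself lowers this share. In bp, the introns of a member summed to a median of 836, against 332 for all genes with a model. A same-strand neighbour lay at a median distance of 1134 bp, and 15 members had none on their scaffold. The group was spread over 182 scaffolds, and 34 members had a CDS of at least 10000 bp. A model on the other strand overlapped 8 members, and since the strand setting of the counting is not stated, their reads cannot be told apart from those of the overlapping gene.

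The rule had 2 limits. The 46 members with a CDS under 3100 bp had median log2 values of 0.44 for the RNA change and 0.02 for RPF over RNA in DMSO, and the 63 genes just below 3000 bp had 0.12 and −0.01. The 86 members with a neighbour 61 to 160 bp away had −0.24 and −0.56, and the 123 long genes with a neighbour 30 to 60 bp away had −0.40 and −0.80. Along the gap limit, the members just inside thus had negative medians like the genes just outside.

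Per length, the median level of the long genes stayed between 5.06 and 21.3 in all libraries. It was measured in RPKM, counts per 1000000 of the library total and per kilobase of annotated exons, and was 8.47 ± 0.65 in RPF Torin 1, 9.79 ± 2.28 in RPF DMSO, 15.04 ± 5.74 in RNA Torin 1 and 9.22 ± 3.79 in RNA DMSO (SD, n = 3 each). The highest single library was RNA Torin 1 replicate 1 with 21.3 and the lowest RNA DMSO replicate 3 with 5.06. The group as a whole took 8.31 ± 3.17% of counts in RPF Torin 1, 9.26 ± 1.01% in RPF DMSO, 11.7 ± 2.8% in RNA Torin 1 and 9.61 ± 1.21% in RNA DMSO, so that the treatments overlapped in both assays. A count of 3 corresponded to 32.8 RPM (counts per 1000000 of the library total) in RPF Torin 1 replicate 3, where 140 members had no read, and to 0.109 to 8.97 RPM in the other 11 libraries.

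**Figure D1:**
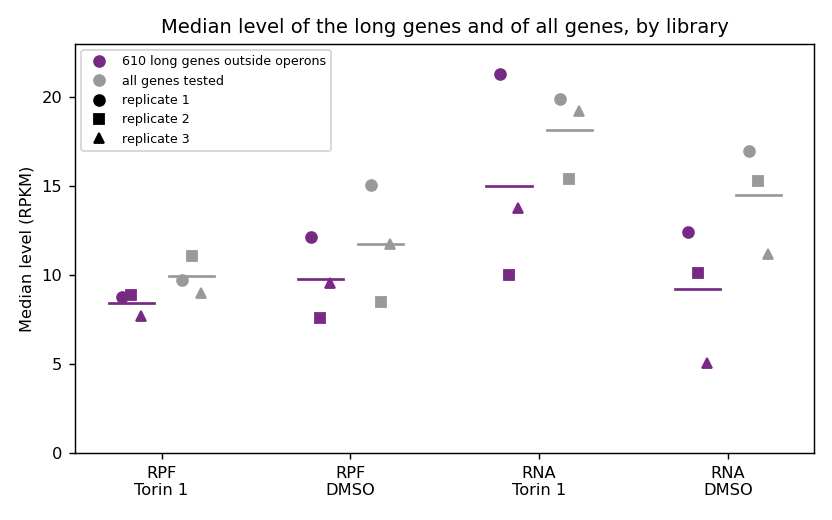
Median level in RPKM (vertical axis) of the 610 long genes outside operons and of all genes tested that have a model, in each library of the 4 groups (horizontal axis). Symbols mark replicates and lines the mean of 3. RNA Torin 1 replicate 1 is the highest library of the long genes at 21.3 and RNA DMSO replicate 3 the lowest at 5.06.

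The level of single members ranged widely. The most abundant in RNA was GSOIDG00003365001 (scaffold 13, 777576 to 782628, 11 coding exons), which the files do not pair with a name. Its RPFs were 802, 952 and 1125 RPM in Torin 1 and 4278, 1344 and 2697 RPM in DMSO, and its RNA 1179, 8451 and 1062 RPM in Torin 1 and 6888, 8362 and 1074 RPM in DMSO. The RNA thus took a high level in 3 libraries and a level of 1062 to 1179 RPM in the other 3, both found in each treatment by the labels. The only high Torin 1 library was replicate 2, which is nearly equal to RNA DMSO replicate 2. The RNA change of −0.56 on the log2 scale had a standard error (SE) of 1.02. The longest member, GSOIDG00004370001 (scaffold 16, 160815 to 202403, CDS 26658 bp in 47 exons), had 5369, 324 and 620 RPM of RNA in Torin 1 and 972, 315 and 32.6 RPM in DMSO. Replicate 1 of Torin 1 stood far above all others. Its fitted RNA change was 2.31 (SE 1.35, edgeR adjusted p = 0.452) and was 0.27 without that library.

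RNA of the long genes was compared first between Torin 1 and DMSO animals, to see whether their share of the message differed. Median RNA change was 0.84 on the log2 scale, and 382 members were above 0 and 228 below. All genes tested had a median of 0.22, the 221 long genes with a close neighbour −0.37, the 3837 genes of 1000 bp to under 3000 bp outside operons 0.83, and the 4442 shorter ones 1.03. The long genes outside operons thus lay near the other genes outside operons. They lay apart from the long genes with a close neighbour, with quartiles of −0.30 and 1.68 against −0.56 and −0.06. Those 221 genes also had more RNA, with a median level of 42.3 RPKM in DMSO, against 9.22 RPKM in the members. The part of the RNA level in this contrast was not tested.

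No member passed an adjusted p of 0.05 in edgeR's quasi-likelihood test. At an unadjusted p under 0.05, 53 members were higher in Torin 1 (8.69%), against a background of 10.1% of all genes, and none was lower, against 0.0274%. DESeq2 called 6 members higher at its adjusted p, 1.1% of the 553 members it gave a p, against 0.65% of all genes it gave a p. Between same-numbered libraries, the median of the members was 0.77, −0.03 and 0.71, the middle value coming from the nearly equal replicate 2 libraries. Without RNA Torin 1 replicate 1, which also held the most muscle RNA, the median was 0.13, and without the libraries numbered 2 it was 1.19. The part of the muscle genes in this was not tested.

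**Figure D2:**
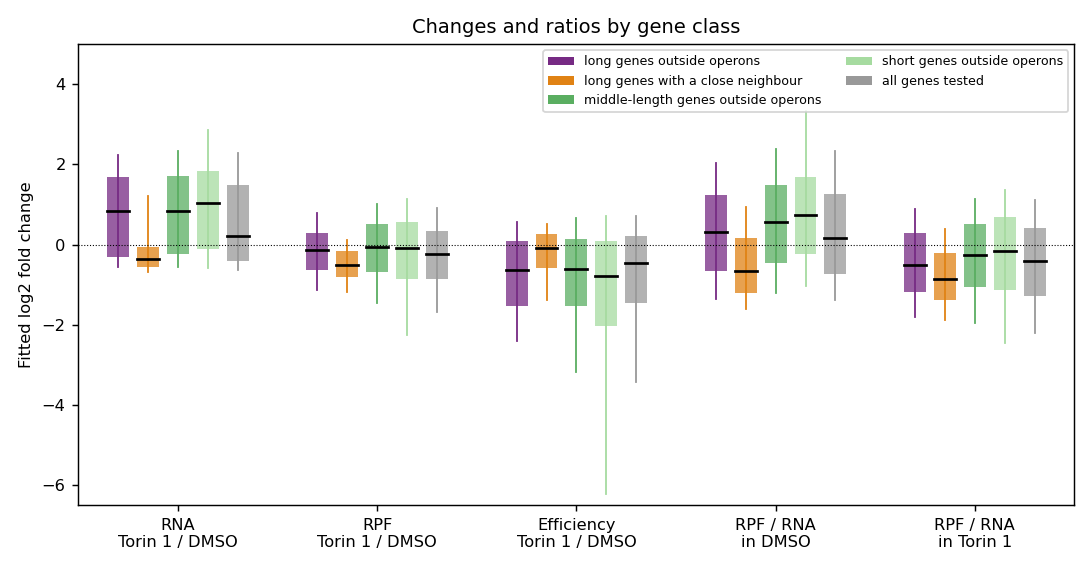
Fitted log2 fold changes (vertical axis) in the 5 comparisons (horizontal axis) for the 610 long genes outside operons, 221 long genes with a close neighbour, 3837 middle-length and 4442 short genes outside operons, and all 14574 genes tested. Black lines are medians, boxes quartiles and thin lines the range from percentile 10 to 90. In the RNA change the long genes outside operons have a median of 0.84 and those with a close neighbour one of −0.37.

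Of the 6 members called by DESeq2, 3 were on the cilium and sperm tail list. The 6 were the beta heavy chain of outer-arm axonemal dynein (GSOIDG00009218001), a motor that bends the axoneme, ciliary dynein heavy chain 11 (GSOIDG00001027001), a second such motor, sperm associated antigen 17 (GSOIDG00003222001), in mammals a part of the central pair of the axoneme, chromosome 1 open reading frame 125 (GSOIDG00008432001), an uncharacterized c6orf224-like protein (GSOIDG00013181001) and a gene described as reverse ribonuclease integrase (GSOIDG00018167001). RNA of the outer-arm dynein was 180, 42.3 and 3024 RPM in Torin 1 and 28.6, 41.4 and 18.1 RPM in DMSO. The fitted change was 5.30 (SE 1.61, edgeR adjusted p = 0.452, DESeq2 adjusted p = 0.0117). Its size came mainly from RNA Torin 1 replicate 3, and without that library the change was 1.79.

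The sperm-specific sodium proton exchanger (GSOIDG00004369001, scaffold 16, 154916 to 159658, 12 coding exons) had the largest fitted RNA change of the members named. In the sea urchin this exchanger of the sperm tail sets the pH inside the sperm. Its RNA was 22.8, 8.38 and 1220 RPM in Torin 1 and 2.31, 6.70 and 1.27 RPM in DMSO. All 3 Torin 1 libraries were above all 3 DMSO libraries, the second by little, and RNA Torin 1 replicate 3 stood far above the other 5. The change was 7.04 (SE 2.13, edgeR adjusted p = 0.452) and was 2.08 without that library. The longest member, GSOIDG00004370001, begins 1156 bp downstream on the same strand, and its highest library was replicate 1 and not 3, so that 2 adjacent genes differed in which library was high.

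Muscle genes among the long genes were highest in RNA Torin 1 replicate 1. Of 4 members with a muscle description, all had a positive RNA change and 1 had an unadjusted p under 0.05. The embryonic muscle myosin heavy chain GSOIDG00016002001, a motor of muscle filaments, had 1391, 232 and 247 RPM of RNA in Torin 1 and 362, 228 and 12.6 RPM in DMSO. Its fitted change of 1.67 (SE 1.14) was 0.38 without replicate 1 of Torin 1. A second embryonic muscle myosin heavy chain, GSOIDG00005710001, had 183, 19.0 and 53.1 RPM in Torin 1 and 25.2, 14.8 and 0.910 RPM in DMSO. The highest DMSO library of this gene was above the lowest Torin 1 library, and the change was 2.69 (SE 1.19).

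Among the RNA libraries, the 1 house list member was also highest in Torin 1 replicate 1. The oikosin-like protein (GSOIDG00014788001), a structural protein of the house, had 2811, 436 and 572 RPM of RNA in Torin 1 and 647, 428 and 97.2 RPM in DMSO, a change of 1.73 (SE 0.89) that was 0.49 without RNA Torin 1 replicate 1. The silk protein GSOIDG00002532001 had 653, 119 and 116 RPM in Torin 1 and 195, 128 and 28.7 RPM in DMSO. Fibrocystin-L (GSOIDG00015949001, CDS 16632 bp), a very large membrane protein with a ciliary relative in mammals, had 1708, 229 and 166 RPM in Torin 1 and 406, 232 and 64.0 RPM in DMSO, and its change of 1.60 (SE 1.00) was −0.14 without that library. All 8 matrix and adhesion members had a positive RNA change, with a median of 1.40, and none an unadjusted p under 0.05. The 8 cilium and sperm tail members were also all positive, with a median of 3.83, and 6 had an unadjusted p under 0.05. The descriptions came from a table shortened to the genes with the strongest fall in efficiency in these same libraries, so they are not independent evidence of a direction.

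**Figure D3:**
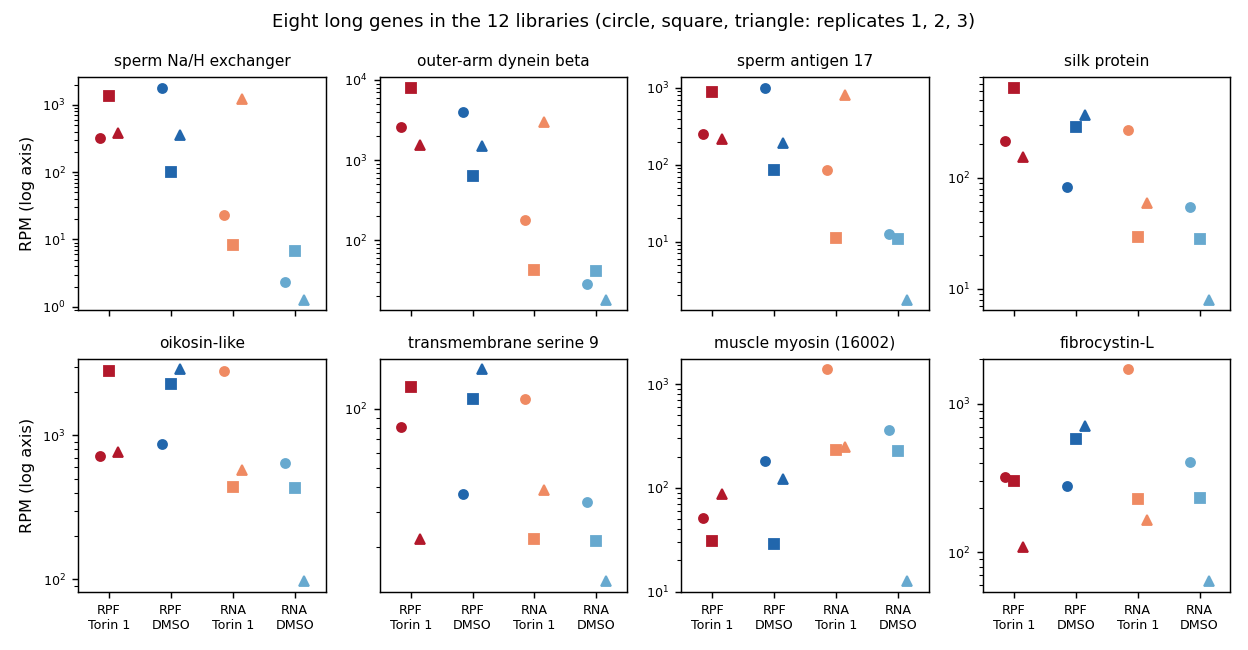
Levels of 8 long genes in RPM on a log axis (vertical) in the 12 libraries, grouped by assay and treatment (horizontal), with a symbol for each replicate. In the first 3 panels, genes of the cilium and sperm tail list, RNA is highest in Torin 1 replicate 3, where the sperm-specific exchanger had 1220 RPM.

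The RNA change was also set against the distance to a neighbour and the length of the gene. In distance bins chosen after the values were seen, the median RNA change was −0.24 for 86 members with a neighbour at 61 to 160 bp, 0.36 for 122 with one farther away but within 500 bp, 0.39 for the next 73, up to 1000 bp, 1.27 for 212 up to 5000 bp and 1.24 for 102 beyond that. The closest members also had the highest RNA levels, with medians of 27.3 to 35.4 RPKM in Torin 1 and 34.7 to 40.2 RPKM in DMSO, against 4.76 to 13.4 and 1.64 to 5.65 RPKM in the farthest. Median CDS was alike in the 5 bins, between 4011 and 4216 bp. Without RNA Torin 1 replicate 1 the medians were −0.16, 0.12, 0.01, 0.27 and 0.23.

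By length, the median RNA change was 0.33 for 288 members under 4000 bp, 0.96 for 209 from 4000 bp to under 6000 bp and 1.39 for 113 of 6000 bp or more, and without RNA Torin 1 replicate 1 it was 0.08, 0.12 and 0.24. By exons, it was 1.24 for 135 members with 2 to 5 coding exons, 0.40 for 393 with 6 to 15 and 1.02 for 82 with 16 or more. Over the members, Spearman's rho with the RNA change was 0.24 for the distance (n = 595), 0.14 for CDS length and −0.08 for the number of exons (n = 610 each). It was −0.66 for the mean RNA level in DMSO, from libraries that enter the change, and −0.37 for total reads. These members share the same 6 libraries, so the values are descriptions.

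**Figure D4:**
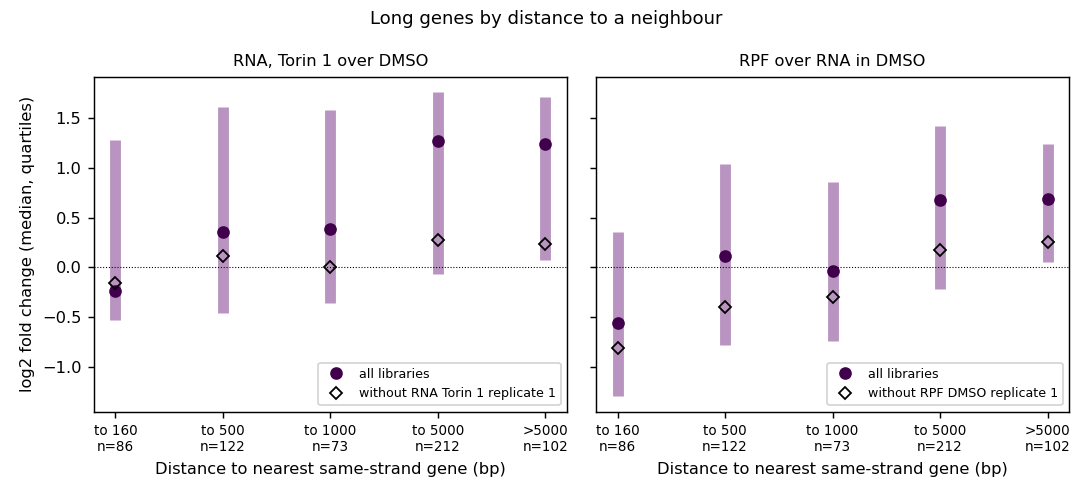
Median log2 fold change with quartiles (vertical axis) of the long genes in 5 bins of distance to the nearest gene on the same strand (horizontal axis, n in each bin), for the RNA change with Torin 1 on the left and for RPF over RNA in DMSO on the right. Filled circles use all libraries and open diamonds leave out RNA Torin 1 replicate 1 (left) or RPF DMSO replicate 1 (right). With all libraries the RNA medians run from −0.24 in the closest bin to 1.24 in the farthest.

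RPFs were compared next between Torin 1 and DMSO animals, to see whether ribosome occupancy differed. Change in RPFs was smaller and mostly negative, with a median of −0.12 over the members, 252 above 0 and 358 below, against −0.24 over all genes and −0.50 over long genes with a close neighbour. No member passed an adjusted p of 0.05 in edgeR, and DESeq2 called none either. At an unadjusted p under 0.05, 12 members were higher in Torin 1, against a background of 1.3%, and 13 were lower, against 4.12%, which is 1.97% and 2.13% of the members. Without RPF DMSO replicate 1 the median was 0.09, and 3 members passed the adjusted threshold as higher, against 0.295% of all genes higher and 0.0206% lower. Leaving out RPF DMSO replicate 2 gave 1 higher and 2 lower, against 0.0892% and 1.33%, and leaving out replicate 3 gave 1 higher, against 0.0274% higher and 0.24% lower.

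Of the members higher in Torin 1 that met the naming rule, GSOIDG00009483001, which has no description, had the largest change. Its RPFs were 57.1, 13.7 and 21.8 RPM in Torin 1 and 3.10, 1.14 and 2.99 RPM in DMSO, so the treatments did not overlap. The change was 3.85 (SE 0.85, edgeR adjusted p = 0.91) and 4.22 without RPF DMSO replicate 1 (adjusted p = 0.00993). It rests on few reads, the value of RPF Torin 1 replicate 3 standing for 2 counts and those of RPF DMSO replicates 2 and 3 for 1 count each.

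Of the 6 members named for a negative RPF change, GSOIDG00002532001 and GSOIDG00015376001 had a description. The silk protein GSOIDG00002532001 had 57.1, 48.0 and 76.5 RPM in Torin 1 and 139, 266 and 269 RPM in DMSO, all 3 Torin 1 libraries being below all 3 DMSO libraries. The change was −1.82 (SE 0.67, edgeR adjusted p = 0.91). GSOIDG00015376001, described as heavy polypeptide, skeletal, adult, had 9.74, 17.2 and 0 RPM in Torin 1 and 39.4, 33.2 and 53.8 RPM in DMSO, with a change of −1.76 (SE 0.71, edgeR adjusted p = 0.91). The 4 members of the muscle list all had negative RPF changes, with a median of −0.78, and 1 had an unadjusted p under 0.05. Of the 8 cilium and sperm tail members, 5 were above 0 and 3 below, with a median of 0.08. Both lists come from the shortened table, so these signs are not independent evidence.

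Efficiency, the change in RPFs relative to the change in RNA, used all 12 libraries. Median efficiency change of the long genes was −0.64, with 172 members above 0 and 438 below, against −0.46 over all genes and −0.09 over long genes with a close neighbour. No member passed an adjusted p of 0.05 in edgeR. At an unadjusted p under 0.05, 36 members were lower in Torin 1 (5.90%), against a background of 7.5%, and none was higher, against 0.206%. DESeq2 called 7 members lower, 1.36% of the 515 members it gave a p, against 1.35% of all genes it gave a p. The medians of same-numbered collections were −0.69, 0.08 and −1.11. With RPF DMSO replicate 1 and RNA Torin 1 replicate 3 left out together, no member passed the threshold, and the median was −0.28.

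The 7 members DESeq2 called were the sperm-specific exchanger, ciliary dynein heavy chain 11, WD repeat domain 52 (GSOIDG00017480001), WD repeat domain 65 (GSOIDG00011346001), the c10orf79-like WD repeat protein (GSOIDG00001024001), chromosome 1 open reading frame 125 and the kiaa1751 homolog (GSOIDG00016980001). In mammals the 3 WD repeat proteins belong to the axoneme of cilia and sperm tails. For the sperm-specific exchanger the fitted efficiency change was −7.03 (SE 2.17, edgeR adjusted p = 0.392, DESeq2 adjusted p = 0.025) and −1.98 without RNA Torin 1 replicate 3. Its RPFs alone overlapped between the treatments, with 326, 1359 and 382 RPM in Torin 1 and 1791, 101 and 359 RPM in DMSO. The efficiency change of the outer-arm dynein was −4.17 (SE 1.71), and −0.57 without RNA Torin 1 replicate 3.

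None of the efficiency changes of silk and muscle genes passed the adjusted threshold. These genes are in the shortened table, so a fall in efficiency is not independent of how they were listed. The silk protein GSOIDG00002532001 had a change of −2.97 (SE 1.02, edgeR adjusted p = 0.409), the gene described as heavy polypeptide, skeletal, adult one of −3.17 (SE 0.98, edgeR adjusted p = 0.392), and the embryonic myosins GSOIDG00005710001 and GSOIDG00016002001 had −4.11 (SE 1.45) and −2.34 (SE 1.37). Without RNA Torin 1 replicate 1 the silk protein was at −1.88 and GSOIDG00015376001, the skeletal gene, at −2.24. A second silk protein, GSOIDG00013163001, had an efficiency change of −1.28, with RNA and RPF changes both above 0. The efficiency change went down with length, with medians of −0.42, −0.70 and −1.08 in the 3 length classes.

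The ratio of RPFs to RNA within the DMSO libraries gave the level of ribosome occupancy per message in vehicle-treated animals, relative to other genes. Median log2 ratio of the long genes was 0.33, with 364 members above 0 and 246 below, against 0.17 over all genes and −0.66 over long genes with a close neighbour. At an adjusted p under 0.05 in edgeR, 44 members had more RPFs than RNA (7.21%), against a background of 6.79%, and 11 had fewer (1.80%), against 1.21%. These shares are close to those of all genes.

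The calls depended on single libraries. Without RPF DMSO replicate 1, 59 members were higher and 94 lower, with 33 of the 44 and all 11 kept and a median of −0.11. Of all genes, 6.91% were higher and 12.9% lower in that fit. Without RNA DMSO replicate 3 no gene at all passed, and without RPF DMSO replicate 3 only 3 did, all higher, against 0.405% of all genes. Leaving out RNA DMSO replicate 1 gave 28 higher and 1 lower, against 5.72% and 0.274% of all genes. Leaving out RNA DMSO replicate 2 gave 22 and 0, against 4.54% and 0.206%, and leaving out RPF DMSO replicate 2 gave 37 and 5, against 6.56% and 0.391%. With library totals in place of TMM factors 28 were higher and 45 lower, against 4.94% and 4.28% of all genes, since that scaling moved the median of all genes from 0.17 to −0.12. With the collection of animals as a block, which pairs RPFs with RNA, 49 were higher and 19 lower, 42 of the 44 and 7 of the 11 being kept, against 7.16% and 2.13% of all genes.

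**Figure D5:**
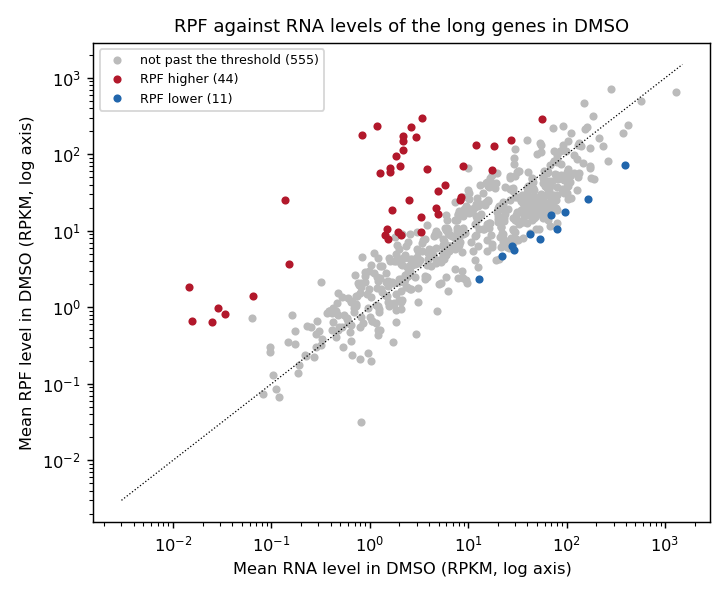
Mean RPF level (vertical log axis, RPKM) against mean RNA level (horizontal log axis, RPKM) in DMSO for 609 long genes, 1 member without RNA counts in DMSO being left out. Red marks members called with more RPFs than RNA and blue those with fewer, and the dotted line is equality. The calls were made on these same libraries. Over the 3 libraries the red group has a median RNA level of 0.919 to 2.81 RPKM and the blue group one of 43.5 to 59.8 RPKM.

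The levels of the called members come from the same DMSO libraries that gave the calls, so their direction follows from the calling. In the 555 members not called, the median was 7.40 to 11.1 RPKM in RPFs and 5.88 to 13.9 RPKM in RNA. The median level of the 44 higher members was 13.6 to 39.2 RPKM in the 3 RPF DMSO libraries and 0.919 to 2.81 RPKM in the 3 RNA DMSO libraries. For the 11 lower members it was 4.88 to 14.8 RPKM in RPFs and 43.5 to 59.8 RPKM in RNA. The log2 ratio ran from 1.86 to 8.04 in the higher and from −2.65 to −1.81 in the lower members. Of the 44, 38 had the same sign in all 3 collections, and all 11 had.

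The largest ratio among the 44 was that of the sperm-specific exchanger, and 4 of the 44 were on the cilium and sperm tail list. In all, 23 of the 44 were in the shortened table of descriptions. The sperm-specific exchanger had 1791, 101 and 359 RPM in RPF DMSO and 2.31, 6.70 and 1.27 RPM in RNA DMSO, a log2 ratio of 8.04 (SE 1.22, edgeR adjusted p = 0.00617) that was 6.21 without RPF DMSO replicate 1 (adjusted p = 0.00125). The outer-arm dynein had 3963, 639 and 1498 RPM in RPFs and 28.6, 41.4 and 18.1 RPM in RNA, with a ratio of 6.37 (SE 0.84, edgeR adjusted p = 0.00386) that was 5.34 without RPF DMSO replicate 1. Every RPF library was above every RNA library for both genes. Sperm associated antigen 17 had a ratio of 6.00 (SE 1.07) and ciliary dynein heavy chain 11 one of 5.81 (SE 1.22), with edgeR adjusted p of 0.0104 and 0.0169, and without RPF DMSO replicate 1 they were at 4.22 and 3.25.

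Of the 8 cilium and sperm tail members, 4 passed the threshold and all 8 had a ratio above 0, with a median of 3.77. All 8 are in the shortened table, whose 103 members had a median ratio of 1.37, against 0.09 in the other 507. Their high ratios are therefore not independent of how they were listed. The plasma membrane calcium pump 3-like gene GSOIDG00008848001, which exports calcium, had 1475, 161 and 287 RPM in RPFs and 11.7, 14.6 and 7.94 RPM in RNA, a ratio of 6.07 (SE 0.91, edgeR adjusted p = 0.00586) that was 4.45 without RPF DMSO replicate 1. A gene without description, GSOIDG00014850001, had 1570, 297 and 413 RPM in RPFs and 2.02, 7.65 and 1.78 RPM in RNA, a ratio of 7.90 (SE 1.01, edgeR adjusted p = 0.00325) that was 6.72 without it. The same summed markers of cilia and sperm tails were 0.229% to 3.08% of counts in RPF DMSO and 0.0175% to 0.0575% in RNA DMSO, and the part of the cell types in the pools was not tested.

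The 1 house list member, 2 silk genes and 1 protease were also among the 44. Their descriptions come from the same shortened table. The oikosin-like protein had 879, 2263 and 2888 RPM in RPFs and 647, 428 and 97.2 RPM in RNA, a ratio of 2.71 (SE 0.74, edgeR adjusted p = 0.0483). The silk protein GSOIDG00013163001 had 81.9, 289 and 368 RPM in RPFs and 55.04, 28.1 and 7.97 RPM in RNA, a ratio of 3.37 (SE 0.76, edgeR adjusted p = 0.0223). Transmembrane serine 9, by name a membrane-anchored serine protease (GSOIDG00008629001), had 37.1, 112 and 159 RPM in RPFs and 33.8, 21.4 and 13.4 RPM in RNA, a ratio of 2.46 (SE 0.60, edgeR adjusted p = 0.0317). In all 3 genes each RPF library was above each RNA library. Another silk protein, GSOIDG00008236001, had a ratio of 2.099 (SE 0.58, edgeR adjusted p = 0.0482), and it lies 97 bp from another silk gene among the members, GSOIDG00008237001. Of the other silk genes, GSOIDG00002532001 did not pass, with a ratio of 1.30 (edgeR adjusted p = 0.211). Without RPF DMSO replicate 1 the oikosin-like protein was at 2.93 (adjusted p = 0.0103), the silk protein GSOIDG00013163001 at 3.65 (adjusted p = 0.00372), transmembrane serine 9 at 2.74 (adjusted p = 0.00304) and GSOIDG00008236001 at 2.20 (adjusted p = 0.0161).

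None of the 11 lower members had a description, and none was in the shortened table. GSOIDG00009083001 (scaffold 3, 1195308 to 1204367, 10 coding exons) had 138, 34.3 and 68.8 RPM in RPFs and 650, 541 and 619 RPM in RNA, a ratio of −2.65 (SE 0.59, edgeR adjusted p = 0.0204). GSOIDG00010748001 had 731, 342 and 442 RPM in RPFs and 2817, 2732 and 2716 RPM in RNA, a ratio of −2.19 (SE 0.55, edgeR adjusted p = 0.0351), and its adjusted p was 0.0995 with the collection as a block. For both genes the 3 RNA libraries were close to each other and every RPF library was below them.

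The ratio in DMSO also went with the distance to a neighbour. The median was −0.56 in the closest bin, 0.11 and −0.03 in the next bins, and 0.68 and 0.69 beyond 1000 bp. Without RPF DMSO replicate 1 it was −0.81, −0.40, −0.30, 0.18 and 0.25, above 0 in the bins beyond 1000 bp alone. Spearman's rho with the ratio was 0.25 for the distance (n = 595) and 0.09 for CDS length (n = 610). By length class, the median was 0.15, 0.45 and 0.50.

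Since the comparisons share libraries, their values for the called members are set side by side only. The 44 higher members had a median RNA change with Torin 1 of 2.88, with all 44 above 0, and a median RPF change of 0.12. Their median efficiency change was −3.29, with 43 below 0, and their median ratio within Torin 1 libraries was 1.02. For the 11 lower members these medians were −0.56, −0.23, 0.47 and −1.55, with the RNA change below 0 in all 11 and the efficiency change above 0 in all 11. The RNA DMSO libraries enter 3 of these comparisons.

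Within the Torin 1 libraries, the median log2 ratio of RPFs to RNA over the members was −0.52, with 193 above 0 and 417 below, against −0.42 over all genes. No member passed an adjusted p of 0.05 in edgeR. At an unadjusted p under 0.05, 67 members had fewer RPFs than RNA (11.0%), against a background of 9.21%, and 10 had more (1.64%), against 2.86%. DESeq2 called 7 members lower and 1 higher, 2.065% and 0.295% of the 339 members it gave a p. Of all genes it gave a p, it called 2.29% and 2.07%. Without RNA Torin 1 replicate 3, 26 members passed in edgeR as higher and 6 as lower, against 3.4% and 0.446% of all genes. With the collection as a block 3 passed, all higher, against 0.686% higher and 0.0412% lower over all genes.

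The sperm-specific exchanger was among the members whose ratio depended on that library. In Torin 1 it had 326, 1359 and 382 RPM in RPFs and 22.8, 8.38 and 1220 RPM in RNA. The RNA of replicate 3 lay among the RPF values and the other RNA libraries far below them. The ratio was 1.07 (SE 1.34, edgeR adjusted p = 0.757) with all libraries and 5.99 (adjusted p = 2.59e-05) without RNA Torin 1 replicate 3. The ratio of GSOIDG00014850001, which has no description, was 2.87 with all libraries and 8.17 without it, and that of the outer-arm dynein was 2.26 and 5.75.

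Among the members with fewer RPFs in Torin 1 was the embryonic muscle myosin heavy chain GSOIDG00016002001. It had 51.5, 30.9 and 87.4 RPM in RPFs and 1391, 232 and 247 RPM in RNA, every RPF library being below every RNA library. The ratio was −2.91 (SE 0.88, edgeR adjusted p = 0.361, DESeq2 adjusted p = 0.0339). All 4 muscle members had a ratio below 0 in Torin 1, with a median of −1.86, and 2 had an unadjusted p under 0.05. These members were listed from the shortened table, so this direction is not independent evidence. The oikosin-like protein had a ratio of 0.71 (SE 0.92) in Torin 1, with 720, 2791 and 765 RPM in RPFs and 2811, 436 and 572 RPM in RNA, which overlapped.

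The remaining fixed lists had few long members, all of them in the shortened table. A fall in efficiency was thus tied to how they were listed, and their signs are not independent evidence. Of 6 channels, receptors and transporters, 5 had a positive RNA change and all 6 a negative efficiency change, with medians of 1.06 and −1.06, and 1 was called in the DMSO ratio, the sperm-specific exchanger. The 3 proteases had RNA changes of 1.22 to 1.36, and 1, transmembrane serine 9, was called in the DMSO ratio. The 2 kinase members had RNA changes of 1.31 and 1.54 and efficiency changes of −0.60 and −1.19. Of 2 mobile element members, the integrase GSOIDG00018167001 had no read in the 3 RPF Torin 1 libraries and in RPF DMSO replicates 2 and 3, so no fold is given for it.

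Spliced leaders were given for 103 members in the shortened table, of which 16 carried one. Leader status of the other 507 members was not analysed here. The 103 had a median efficiency change of −2.04, against −0.39 in the others, which follows from how the table was shortened. Their median RNA change was 1.67, against 0.27, and their median ratio in DMSO was 1.37, against 0.09.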

How the data were processed

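Total RNA and RPFs of day 6 females were measured in 12 libraries, 3 per group, with all columns mapped from the labels. The authors removed rRNA and tRNA reads with Bowtie2, mapped the rest with TopHat and counted reads per gene, and the submitters' processing notes name Bowtie2 2.1.0, TopHat2 2.0.13 and featureCounts. The deposited table holds raw counts, and the strand setting and the treatment of multi-mapping reads are not given in the sources used here. The deposited annotation has values of other kinds (positions on scaffolds, from 1), and gave CDS length, exons and neighbours for 17113 of 17212 genes in the count table. No genome or protein sequence was used here, so no sequence is printed.

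Genes with at least 100 reads were tested with edgeR 4.0.16 in R 4.3.3 (TMM factors, quasi-likelihood F-test, two-sided), with the Benjamini-Hochberg adjustment over 14574 genes and a threshold of 0.05. Treatments were compared in RPFs and in RNA, efficiency was the interaction of assay and treatment over all 12 libraries, and RPFs were compared with RNA within each treatment, since the package the study used for efficiency, babel, was not installed. Each standard error is the fold change over the root of its F statistic. RPM are counts over library totals, RPKM divide by the annotated exon length, and log2 CPM used a prior count of 2. The fits were also run on simulated counts with the same spread for all genes and no library standing apart. That run therefore does not cover libraries such as these. Since nothing shows that pools were reared apart, p-values measure the spread between these samples. Library totals set the counting precision, given as the level of 3 counts.

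The members and gene lists were chosen with earlier results of these data known. Lists were keywords applied to descriptions in the study's table, which was held only in part. Genes were named by a rule: per comparison and direction the 6 largest changes past the threshold, or else the smallest p, of those whose mean count reached 20 and whose sign was shared by 3 same-numbered pairs, the 10 longest, the 8 most abundant in each assay and 4 per list, with at most 2 by identifier alone in each part. Naming the genes DESeq2 called and binning by distance were added after values were seen. GSOIDG00008848001 and GSOIDG00015272001 were named outside the rule.

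RPFs and RNA of one number came from one collection according to the methods, and main fits had no block. Deviations from the group mean correlated between RPFs and RNA at 0.18, −0.12 and 0.14 in Torin 1 and at 0.01, −0.10 and −0.09 in DMSO. Between Torin 1 and DMSO libraries of one number they correlated at 0.66, −0.13 and 0.20 in RNA and at −0.06, 0.01 and −0.01 in RPFs. Alternatives were DESeq2 1.42.0, library totals alone, other filters, the block, each library left out, doubtful libraries left out and other limits for length and distance.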

Additional observations from a re-analysis of the deposited data

How the results depend on the processing

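DESeq2 called 6 members for the RNA change, 7 for efficiency and 8 for the ratio in Torin 1, where edgeR called 0. Of the genes DESeq2 gave a p, it called 0.65% higher for RNA and 1.35% lower for efficiency. Of the members it gave a p, these were 1.1% and 1.36%. For the ratio in Torin 1 it called 2.07% of such genes higher and 2.29% lower, and of such members 0.295% and 2.065%. For the DMSO ratio, 44 members were higher and 11 lower in the main fit. Library totals alone gave 28 and 45, against 4.94% and 4.28% of all genes, with a median of 0.022, against 0.33. DESeq2 gave 40 lower, no filter gave 17 lower and leaving out the libraries numbered 2 gave 0 lower. Of the 44 higher members, DESeq2 kept 37 and the fit without the libraries numbered 2 kept 34. The share of all genes called with DESeq2, with no filter or without the libraries numbered 2 is not given here. Those counts therefore cannot show whether the members differed from other genes. A CDS minimum of 4000 bp left 25 higher and 6 lower of 322 members, with a median of 0.47. A distance of 1000 bp left 29 and 5 of 329, with a median of 0.68. Both have fewer members by construction and use the main fit, which called 6.79% and 1.21% of all genes. With the replicate block, which pairs RPFs with RNA of one collection, 19 were lower in DMSO, against 2.13% of all genes. In Torin 1, 3 members passed as higher, against 0.686%. The count of calls stayed at 0 for RNA, RPFs and efficiency. Library totals alone gave a median of −1.015 for the ratio in Torin 1, against −0.52. That scaling moved the median of all genes by over 0.1 for RPFs, efficiency and both ratios.

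With each library left out in turn, the median RNA change ran from 0.13 to 1.09, the RPF change from −0.26 to 0.090 and the DMSO ratio from −0.11 to 0.58. Members called ran from 0 to 3 for RPFs, from 0 to 59 higher and 0 to 94 lower for the DMSO ratio, and from 0 to 32 for the ratio in Torin 1. The fit that gave 59 and 94 called 6.91% and 12.9% of all genes. The Torin 1 ratio without RNA Torin 1 replicate 3, with 26 members higher and 6 lower, called 3.4% and 0.446%. Without RPF DMSO replicate 1 the RPF median turned positive and the DMSO ratio negative. The cause was not tested. The alternative without both doubtful libraries equals leaving out 1 library, or none, in every comparison but efficiency. RPF depth limits the low members most, since 140 had no read in RPF Torin 1 replicate 3.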
